A study of Caenorhabditis elegans with 2 samples.

Results

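Histone genes were defined as the genes of the Ensembl WBcel235 annotation of Caenorhabditis elegans whose name begins with his-. The definition gave 72 genes of 19973 protein-coding genes, and all 72 were protein-coding. Each was given a promoter window from 1000 bp upstream to 200 bp downstream of its annotated start. Because many histone genes face each other and share their upstream sequence, overlapping windows were merged, so that a shared window counted once. The 72 windows formed 37 promoter regions, of which 8 held 1 gene, 25 held 2 genes, 2 held 3 genes and 2 held 4 genes.

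The study mapped SEA-2 on chromatin by immunoprecipitation followed by sequencing (ChIP-seq). SEA-2 is a zinc finger protein known from worm sex determination. Both samples came from strain OP586, in which the transgene wgIs586 carries sea-2 fused to TY1, EGFP and 3xFLAG together with a working unc-119(+) gene, in animals with the unc-119 (tm4063) mutation. Animals had been synchronised by bleaching and starvation as L1 larvae and were collected whole as young adults at 64 hours. Their sex was not recorded, and the promoter that drives the fusion is not given in the labels. Chromatin was sonicated to fragments of 200 to 800 bp. The precipitation used an antibody against GFP according to the sample descriptions, whereas the antibody field gives sea-2. There is a single group of 2 biological replicates, so no contrast between conditions exists. A control experiment named in the labels was not analysed here. Whole animals mix all tissues and the germline, so binding in few cells and weak binding in many cells cannot be told apart.

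Core histones H2A, H2B, H3 and H4 form the protein spool around which DNA is wound into nucleosomes, and the linker histone H1 sits on the DNA between them. Most animal histone genes are transcribed while DNA is replicated, exist in many copies and lie in clusters. Replacement variants such as H3.3 are made outside replication from separate genes. In worms, core histone genes are commonly arranged as divergent pairs, with H2A opposite H2B and H3 opposite H4, so that a single stretch of DNA lies upstream of both.

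The authors deposited a ranked list of 82563 candidate peaks made from both replicates, and shorter thresholded lists, whose peaks are all among its entries. A candidate was called selected when it stood in the optimal list of 453 peaks or the conservative list of 431 peaks. The 2 lists shared 328 peaks, so 556 candidates were selected, or 0.673% of all. The lists rest on the irreproducible discovery rate (IDR), which measures how well a peak's rank repeats between lists, and every thresholded peak had a -log10 IDR of at least 2 in 1 of 2 pooled ranked lists: conservative peaks in the list of 82563, optimal peaks in a second one. That the first compares the replicates with each other was inferred from this and is not stated. Signal is the value that the authors' peak caller gave each peak, on an unstated scale, so it is used only to order candidates within a list. Ranks count from the strongest candidate, and a percentile of 100 would be the strongest.

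Histone windows held 51 candidates, of which 3 were selected, or 5.88%. Over all candidates in protein-coding promoter regions 1.23% were selected. Of the 37 histone promoter regions 26 held a candidate and 3 held a selected peak, or 8.11%, where the share over all 16296 promoter regions was 1.22%. The share of regions with a candidate was 70.3%, against 62.9% of other regions. By gene, 40 of 72 had a candidate in the window, against 12316 of 19901 other genes, a larger share. A selected peak was in the window of 5, or 6.94%, where the share over all protein-coding genes was 1.31%. The 5 genes were his-61 and his-62, which share a peak, his-5 and his-6, which share another, and his-37. No set test was made on these shares.

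The sequences under the 3 selected summits are shown first, because the results turn on where those summits fall. Each is the 201 bases centred on the summit, from the RefSeq sequence of WBcel235, which is the ce11 assembly of the peak lists, read on the plus strand. Capitals mark TATAAA on either strand, the letters of a TATA box.
his-61 and his-62, chrIV:7485977-7486177: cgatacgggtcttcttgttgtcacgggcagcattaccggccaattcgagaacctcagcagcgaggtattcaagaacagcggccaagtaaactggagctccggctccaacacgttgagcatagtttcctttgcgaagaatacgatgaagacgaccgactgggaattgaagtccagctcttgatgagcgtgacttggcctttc
his-37, chrV:9546898-9547098: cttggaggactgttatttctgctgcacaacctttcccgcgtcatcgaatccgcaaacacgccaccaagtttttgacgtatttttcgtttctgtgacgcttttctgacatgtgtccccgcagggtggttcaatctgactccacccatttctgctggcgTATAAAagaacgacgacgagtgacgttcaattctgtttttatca
his-5 and his-6, chrV:8534846-8535046: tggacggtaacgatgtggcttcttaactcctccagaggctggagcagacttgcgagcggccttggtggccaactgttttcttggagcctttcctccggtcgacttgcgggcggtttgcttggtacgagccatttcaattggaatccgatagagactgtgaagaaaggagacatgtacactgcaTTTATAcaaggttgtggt

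The window at his-61 and his-62 is coding sequence throughout, that at his-37 is intergenic and ends just upstream of the gene, and that at his-5 and his-6 begins in the coding sequence of his-6 and ends upstream of it.

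The strongest histone peak lay at the H2A gene his-61 and the H2B gene his-62, at chrIV:7485925-7486228. Its signal was 106.2, rank 186 of the pooled list, its -log10 q was 1.29, and its -log10 IDR was 2.87 in the ranked list of the replicates. It stood in both the optimal and the conservative list. The summit was 140 bp inside his-61, in its coding sequence, and 468 bp upstream of his-62. In replicate 1 the overlapping candidate had a signal of 52.7, rank 324, and in replicate 2 one of 50.6, rank 201. Both replicates therefore placed it among their strongest candidates, and in replicate 2 the summits coincided.

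The second peak lay at his-37, an H4 gene with no divergent histone partner, at chrV:9546846-9547149. Its signal was 96.6, rank 254, its -log10 q was 1.38 and its -log10 IDR was 2.36, and it too stood in both lists. The summit was 107 bp upstream of his-37 in intergenic sequence, the only one of the 3 selected summits outside coding sequence. The overlapping candidate of replicate 1 had a signal of 39.04, rank 1558, and that of replicate 2 had a signal of 53.2, rank 164. The site ranked higher in replicate 2 than in replicate 1.

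The third peak lay at the H3 gene his-6 and the H4 gene his-5, at chrV:8534794-8535097, with a signal of 70.3, rank 874 and a -log10 q of 0.910. Its summit was 31 bp inside his-6 and 268 bp upstream of his-5. It stood in the optimal list alone, with a -log10 IDR of 2.23 in the second pooled ranked list and of 0.917 in the list that compares the replicates. Replicate 1 had a candidate of signal 56.1 at rank 252, and replicate 2 one of signal 20.2 at rank 14440, with a summit 168 bp away. The site ranked far higher in replicate 1 than in replicate 2.

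**Figure D1:**
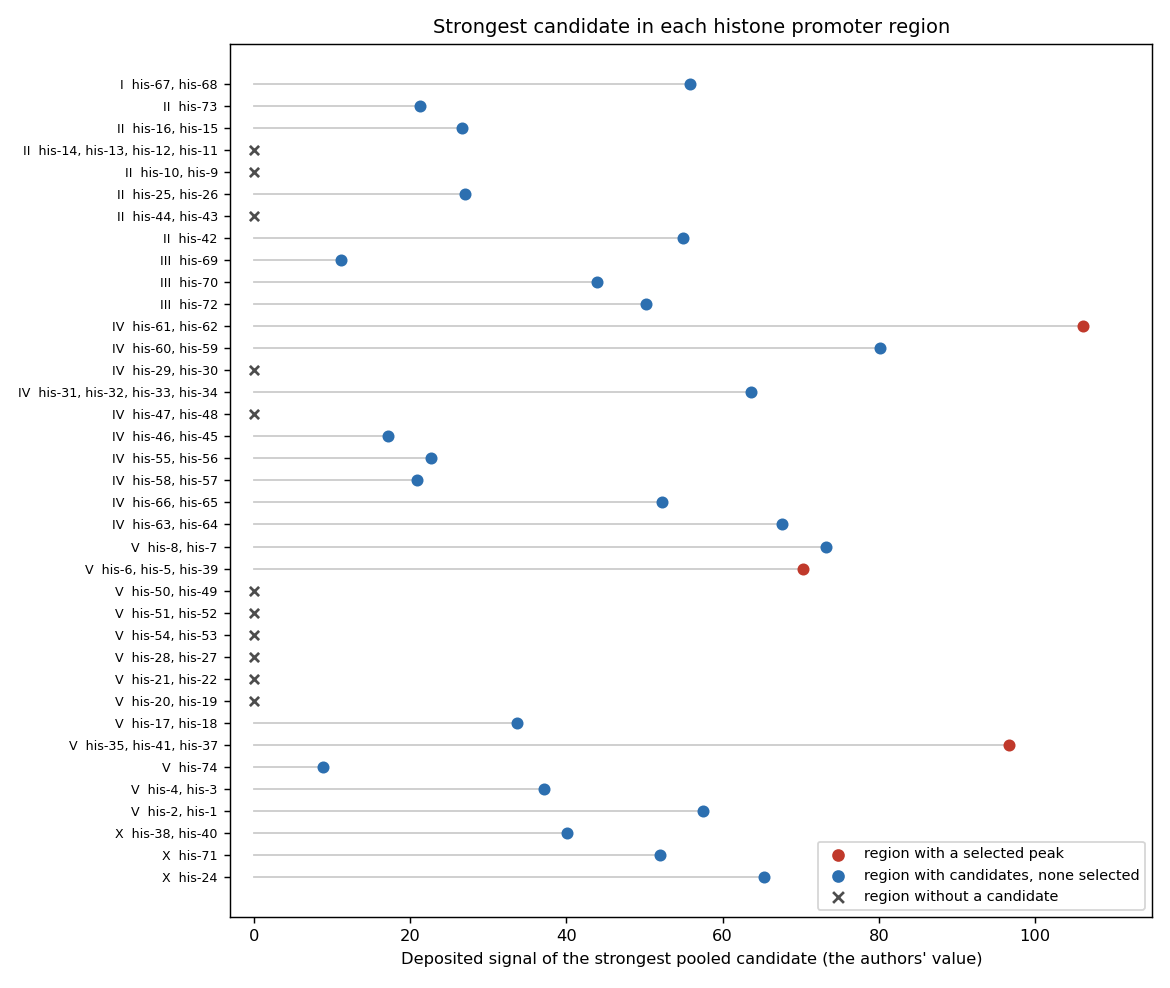
Signal of the strongest pooled candidate (x axis, the authors' value) in each of the 37 histone promoter regions, in chromosome order down the page, with red for regions with a selected peak, blue for regions with unselected candidates and crosses for regions with none. The 3 selected regions reach 106.2, 96.6 and 70.3, and the 11 regions without a candidate lie on chromosomes II, IV and V.

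Of the unselected candidates, the 3 with the highest signal were at histone genes of clusters that also hold a selected peak. Next after his-37 came a candidate of signal 81.2 inside the coding sequence of the H2B gene his-62, 225 bp from its start, with a -log10 IDR of 0.176. A candidate of signal 80.2 lay 109 bp inside the H4 gene his-60, which is paired with the H3 gene his-59, and its -log10 IDR of 1.99 fell just short of 2. Another, of signal 73.2 and -log10 IDR 1.85, lay between the H2B gene his-8 and the H2A gene his-7. These 3 unselected candidates had a higher signal than the selected peak at his-5 and his-6. Over all candidates at or above that peak's signal, 492 of 874 were selected (56.3%), and over those in promoter regions 191 of 275 (69.5%). The next unselected candidates had signals of 67.5 in the coding sequence of the H3 gene his-63, 65.2 just inside the H1 gene his-24 and 63.6 in the coding sequence of the H3 gene his-32.

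The replicates' own ranks of these sites differed in either direction. At his-60 the overlapping candidates ranked 1261 in replicate 1 and 905 in replicate 2, with summits within 4 bp of the pooled one. At his-7 and his-8 they ranked 1501 and 1134, with summits 35 bp to one side in replicate 1 and 37 bp to the other in replicate 2. At his-62 they ranked 2575 and 338, with the summit of replicate 1 124 bp away. At his-24 replicate 1 had a candidate at rank 12168 and replicate 2 had none.

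By the clusters along the chromosomes, the 72 genes formed 19 groups when starts within 10 kb were joined, of which 14 held several genes and 5 were single genes. The selected peaks lay in 3 of these clusters. The cluster of 4 genes on chromosome IV, at 7485834 to 7488659, held his-61, his-62, his-60 and his-59, with 5 candidates in its windows, 1 of them selected. The cluster of 5 genes on V, at 8532715 to 8536716, held his-8, his-7, his-6, his-5 and the short H2B-type gene his-39, with 5 candidates and 1 selected. The cluster of 3 genes on V, at 9544659 to 9547607, held his-35, his-41 and his-37, with 4 candidates and 1 selected.

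Other clusters ranged from strong unselected candidates to none at all. Among clusters without a selected peak in a window, that of his-63 to his-66 on IV had the highest signal, 67.5 at rank 1083. The 4 genes his-1 to his-4 on V had 8 candidates with a top signal of 57.5 inside the H3 gene his-2, rank 2543. The largest cluster, 13 genes on II at 13817760 to 13828697, had 3 candidates and 3 of 6 regions without one. Its strongest candidate, of signal 54.9, was 774 bp upstream of the H3 gene his-42 at its edge. A small nuclear RNA (snRNA) gene lay within 500 bp of this candidate. Around its summit, 78.4% of 31-base words occur more than once in the genome. Whether the candidate belongs to his-42 or to the snRNA gene was not tested. The cluster of his-29 to his-34 on IV had a top signal of 63.6, and the pair his-67 and his-68 on I one of 55.8 at rank 2951.

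The next clusters had lower top signals than those above, or no candidate. The pair his-38 and his-40 on X reached 40.05, above the median of 30.7 for the strongest candidates of other protein-coding regions. The 4 genes around his-45 to his-48 on IV reached 17.2, and the 4 genes around his-55 to his-58 reached 22.7, both below that median. The 6 genes on V at 8847393 to 8854053 had no candidate in any window. The 8 genes on V at 8889488 to 8898539 had 1, of signal 33.7, at the H4 gene his-18, slightly above that median. A selected peak lay 6911 bp from the nearest histone window of that last cluster, outside it.

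By class, all groups of histones had members with a candidate. The H4 genes had 11 of 16 with a candidate and 2 with a selected peak (his-5 and his-37), and the H3 genes had 9 of 16 and 1 (his-6). The H2A genes had 6 of 17 and 1 (his-61), and the H2B genes 8 of 17 and 1 (his-62). Of other protein-coding genes 12316 of 19901 had a candidate and 1.29% a selected peak. Copied sequence, as the share of 31-base words found more than once in the genome, differed between classes. Its median per window was 97.4% for H2A, 79.1% for H2B, 63.7% for H4, 55.3% for H3 and 0% for H3.3-type genes. The part of copied sequence in these class counts was not tested. The 72 genes encode 17 distinct proteins, so classes hold few different products, and classes are not independent because paired genes share windows. The single H1 gene, his-24, had 1 unselected candidate in its window. All 5 H3.3-type genes had a candidate and none had a selected peak in the window.

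The H3.3-type genes varied widely among themselves. The strongest candidate had a signal of 52.01 at his-71, at rank 4205, and of 50.1 at his-72, at rank 5035. It had a signal of 43.96 at his-70, 11.2 at his-69 and 8.82 at his-74, which was the lowest of any histone region with a candidate. These summits lay 920 bp upstream of his-71, 16 bp of his-72, 941 bp of his-70, 561 bp of his-69 and 184 bp of his-74. Around the summit at his-70, 86.0% of 31-base words were repeated. Nearer his-71, 87 bp upstream, a candidate had a signal of 34.2 and no overlapping candidate in either replicate. Inside his-69, past its window, an unselected candidate had a signal of 53.97, higher than any in the windows of the H3.3-type genes. The product of his-71 is 99.3% identical to that of his-72, that of his-74 94.1%, that of his-69 86.6% and that of his-70 80.6%. The other single genes were his-73, which encodes a product of only 46 residues close to H3 and had a top signal of 21.2, and his-24 at 65.2. The H2A gene his-35, whose product is 99.2% identical to that of his-3, had a top signal of 32.6 in its own window.

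Beyond the promoter windows, 2 histone genes had a selected peak inside the gene. In the H1 gene his-24, a peak at chrX:14490525-14490828 had a signal of 86.7 and rank 358, higher than the candidate at its start. Its summit was 583 bp downstream of the start, in coding sequence, and it stood in the optimal list alone, with a -log10 IDR of 2.45 in the second pooled list and 1.45 in that of the replicates. The overlapping candidate of replicate 1 had rank 242 and that of replicate 2 rank 6932. GC content around this summit was 58.7%. In the H3.3 gene his-72, a peak at chrIII:12368668-12368971 had a signal of 55.1, rank 3137, and was also in the optimal list alone. Its summit was 230 bp downstream of the outermost annotated start, 30 bp past the window, and 656 bp upstream of the start of the other transcript. The -log10 q of this peak was 0.427, and its -log10 IDR was 2.51 in the second pooled list and 1.45 in that of the replicates. The overlapping candidates ranked 3958 in replicate 1 and 1388 in replicate 2. With windows at every transcript start his-72 joined the genes with a selected peak, giving 6 of 72 histone genes (8.33%), where the share over all genes was 1.51%. With windows extended through the gene body the count was 7 of 72 (9.72%), where the share over all genes was 2.23%.

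Histone genes are held in near-identical copies, and repeated sequence went with the lack of candidates. The measure used was the share of 31-base words of a region that occur more than once in the nuclear genome on either strand. Its median was 27.5% in the 26 histone regions with a candidate, with a range of 0 to 85.9%, and 100% in the 11 regions without one, with a range of 80.4 to 100%. By gene, 28 histone windows had more than 90% repeated words, and 1 of these (3.57%) had a candidate, against 6.11% of the 229 other windows in that range. Of the 20 histone windows with 10 to 50% repeated words 19 had a candidate and 4 had a selected peak, against candidates in 68.3% and selected peaks in 1.70% of other windows. The 4 windows were those of his-61 with his-62 and of his-5 with his-6, and each pair shares a single peak, so they are not independent. In the 201 bases around the summit, repeated words made up 49.1% at his-61 and his-62 and 38.0% at his-5 and his-6. At the summit of his-37 they made up 0%. The median around candidate summits was 36.5% in histone coding sequence and 0% in other intergenic sequence. Of the 9 histone windows with under 10%, all 9 had a candidate, against 62.0% of 17056 other windows. Of these 9, that of his-37 alone had a selected peak (11.1%), where the share over all protein-coding windows with so little repeated sequence was 1.24%. Where the sequence is copied, a region without a candidate cannot be told apart from one that could not be read, and the treatment of reads that match several positions is not stated in the labels or notes. The part of repeated sequence in the count of selected regions was not tested.

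**Figure D2:**
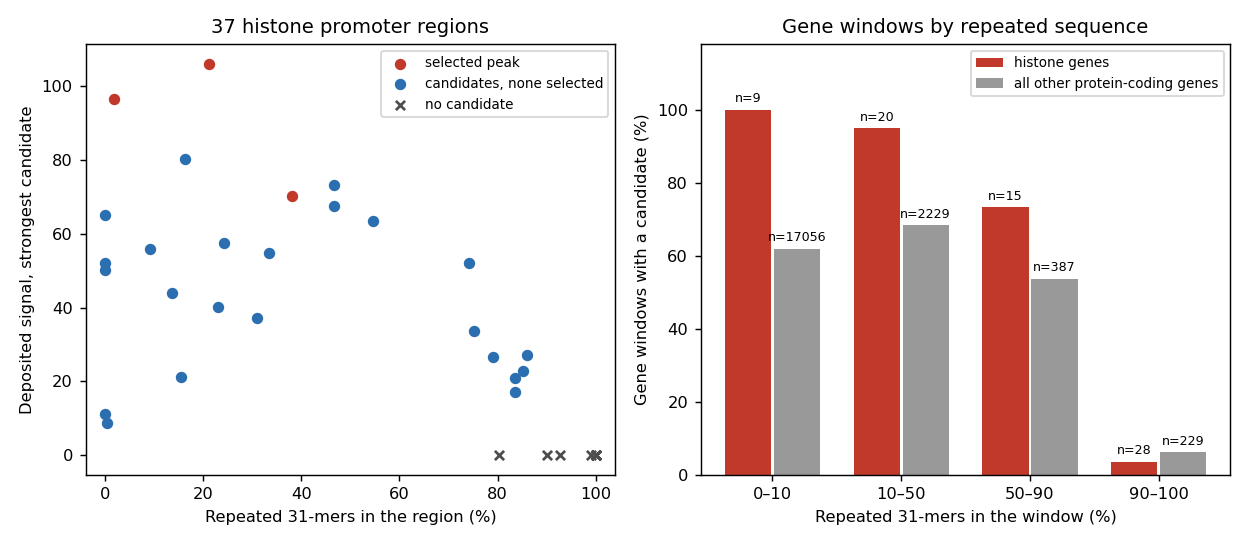
Left, repeated 31-base words in each histone promoter region (x axis, %) and the signal of its strongest candidate (y axis, the authors' value), with red for regions with a selected peak, blue for unselected candidates and crosses at 0 for regions with none. Right, share of gene windows with a candidate (%), for histone genes in red and all other protein-coding genes in grey, by repeated words; the number of windows stands over each bar. Regions without a candidate all have 80.4% or more repeated words.

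The copies can be compared directly at H2A and H2B pairs. The sequence between the starts of his-51 and his-52 is 292 bases long and is identical at his-53 and his-54, his-21 and his-22, and his-19 and his-20, and none of these 4 pairs had a candidate in the pooled ranked list or in the ranked list of either replicate. The interval of his-7 and his-8 has the same length, differs from that copy at 13 positions and held the candidate of signal 73.2. The interval of his-3 and his-4 differs at 33 positions and held a candidate of signal 22.4. The sequences are shown from the H2A gene to the H2B gene, 5′ to 3′, with capitals in the lower 2 marking each base that differs from the copied sequence.
his-51 and his-52, chrV:8850172-8850463, plus strand: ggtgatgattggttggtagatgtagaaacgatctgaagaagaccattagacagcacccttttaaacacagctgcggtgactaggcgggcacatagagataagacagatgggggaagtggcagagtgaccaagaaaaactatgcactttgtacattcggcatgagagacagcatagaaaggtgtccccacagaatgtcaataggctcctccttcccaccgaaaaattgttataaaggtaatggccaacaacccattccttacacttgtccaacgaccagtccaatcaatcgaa
his-7 and his-8, chrV:8533087-8533378, minus strand: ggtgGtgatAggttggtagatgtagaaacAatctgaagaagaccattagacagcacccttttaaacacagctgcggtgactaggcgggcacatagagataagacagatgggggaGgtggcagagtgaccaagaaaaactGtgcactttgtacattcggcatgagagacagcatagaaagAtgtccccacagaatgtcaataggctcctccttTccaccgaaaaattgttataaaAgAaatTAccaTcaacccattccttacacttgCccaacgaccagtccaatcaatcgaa
his-3 and his-4, chrV:16040516-16040807, minus strand: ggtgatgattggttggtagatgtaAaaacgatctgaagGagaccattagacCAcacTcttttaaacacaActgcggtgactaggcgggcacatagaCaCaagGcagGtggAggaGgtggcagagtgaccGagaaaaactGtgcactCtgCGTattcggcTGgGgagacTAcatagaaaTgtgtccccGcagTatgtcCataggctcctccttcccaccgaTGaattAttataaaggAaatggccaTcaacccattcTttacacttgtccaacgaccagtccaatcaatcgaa

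Divergent pairs made up most of the set. Of the 72 genes 62 stood in 31 pairs, of which 16 were H2A with H2B, 14 H3 with H4 and 1 H2A with H4, and 227 to 368 bases (median 258) lay between the starts. Candidates lay in the windows of 18 pairs, and the strongest summit was in coding sequence in 11 of them (61.1%) and between the starts in 1 (5.56%), his-7 and his-8. Among 1714 other divergent pairs of protein-coding genes 1265 had a candidate, and the strongest summit lay in coding sequence in 43.7% of these and between the starts in 33.2%. Among the 303 other pairs with intervals as short as those of the histone pairs, 240 had a candidate, with 53.8% in coding sequence and 19.6% between the starts. At 65 of the 72 histone genes the annotated start is the coding start, so bases past it count as coding at once. Annotated starts of other pairs may lie before the coding sequence, so these shares are not strictly alike. In the 11 histone pairs with less than 50% repeated words between the starts, all 11 had a candidate and 10 had the strongest summit in coding sequence. In the 17 pairs whose interval was wholly repeated, 4 had a candidate and none had one between the starts.

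**Figure D3:**
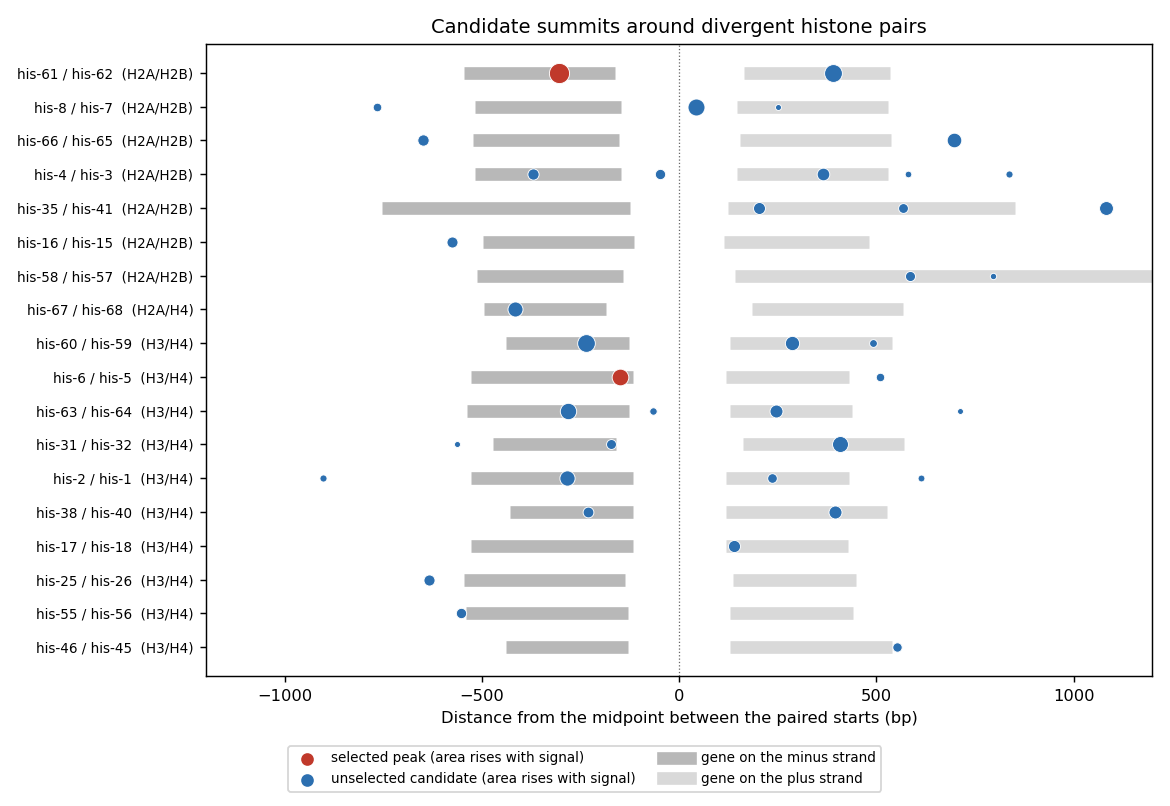
Candidate summits (points, x axis, bp) around the midpoint between the starts of the 18 divergent histone pairs with a candidate in their windows, H2A with H2B pairs above and H3 with H4 pairs below; bars are the genes, red points are selected peaks, and point area rises with signal. Most large points lie over the gene bars, and 3 points lie between the starts.

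Counted over all 51 candidates of histone windows, 22 summits fell in histone coding sequence and 1 in that of another gene, or 45.1% in coding sequence, against 27.7% of the 17180 other promoter candidates. Coding bases made up 38.3% of histone regions, against 21.3% of other promoter regions. Among positions that were not repeated the shares were 21.2% and 21.6%. Candidates in coding sequence had a median signal of 39.5, and the others a median of 21.8. Among other promoter candidates the 2 medians were 26.1 and 24.6. Median GC content around the summit was 46.8% for histone candidates and 39.3% for other promoter candidates, and 51.7% for those in histone coding sequence. The part of GC content in the signal was not tested.

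The strongest candidates of histone regions had higher signal than those of other regions. Over all histone candidates the median was close to that of others, while a larger share stood near the top of the list. Over the 26 regions with a candidate, the 3 selected ones included, the strongest had a median signal of 51.1 (lowest 8.82, highest 106.2), against a median of 30.7 in other protein-coding regions. Over all 51 histone candidates the median was 28.4, against 25.03 over other promoter candidates. The strongest candidate per histone region had a median percentile of 94.4 in the pooled list. Of the 51 histone candidates 5 (9.80%) stood in the strongest 1% of the pooled list, against 1.50% of other promoter candidates, and 12 (23.5%) in the strongest 5%, against 5.81%. Histone regions were longer, with a median of 1717 bp against 1201 bp, and the part of region length in these values was not tested. Other divergent pairs, with a median region length of 1515 bp, had a median of 33.6.

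Compared with other gene groups, histone regions lay between ribosomal protein genes and the rest in their share of selected peaks. The share was 8.11% for histone regions, 15.1% for ribosomal protein genes (11 of 73 regions), 2.93% for other divergent pairs (50 of 1707) and 1.20% for all other protein-coding genes (195 of 16273). Ribosomal protein genes are another set of highly expressed genes with products needed in fixed proportion. Their strongest candidates had a median signal of 43.3, lower than the 51.1 of histone regions, while a larger share of their regions with a candidate was selected, 19.3% against 11.5% for histone genes. No test was made between the groups.

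**Figure D4:**
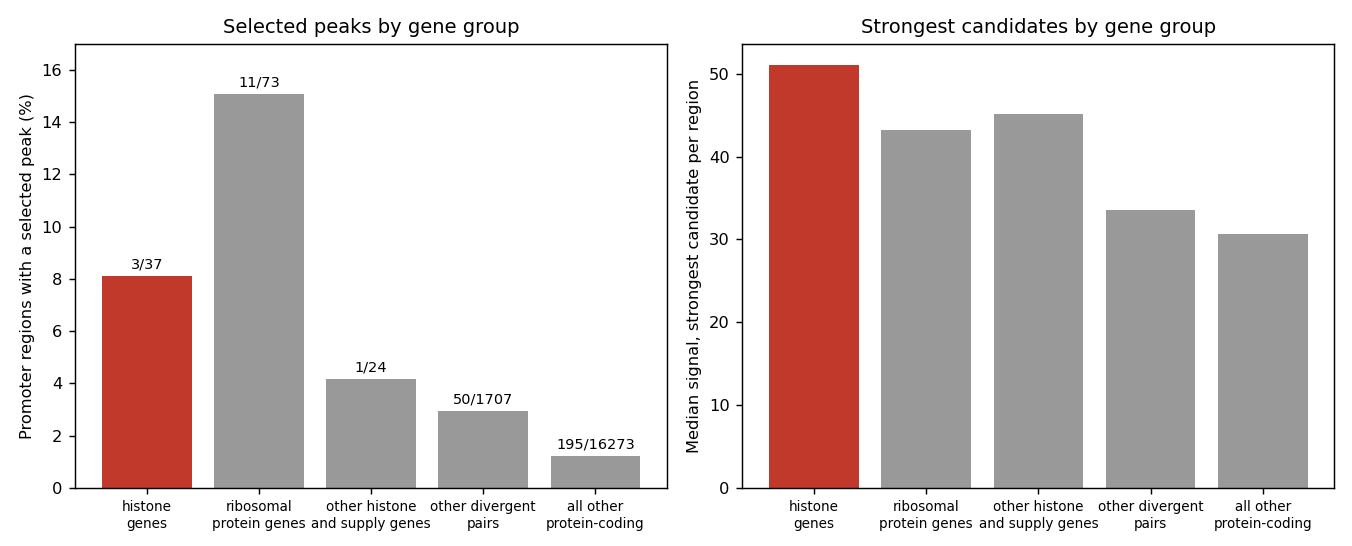
Left, share of promoter regions with a selected peak (%), with the count over each bar; right, median signal of the strongest candidate per region that had one (the authors' value), for histone genes (red) and 4 comparison groups (grey). Histone regions have 8.11% selected and a median of 51.1.

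The replicates were also examined alone. The thresholded list of replicate 1 held 167 peaks and that of replicate 2 held 119, and none of either overlapped a selected histone peak or had its summit in a histone region. Over all protein-coding gene windows 0.476% had a thresholded peak of replicate 1 and 0.295% one of replicate 2. The ranked list of replicate 1 had 37 candidates in 21 histone regions, and that of replicate 2 had 38 in 23 regions. In 18 regions both replicates had a candidate and in 11 neither did, and 10 of these 11 had none in the pooled list either. The median percentile of the strongest candidate was 88.2 in replicate 1 and 79.1 in replicate 2. The selected histone peaks thus passed the threshold with both replicates combined, and no replicate passed it alone. Since so few windows of any protein-coding gene held such a peak, this absence is not particular to histone genes. The share of all selected peaks that overlap a thresholded peak of a replicate is not given here.

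**Figure D5:**
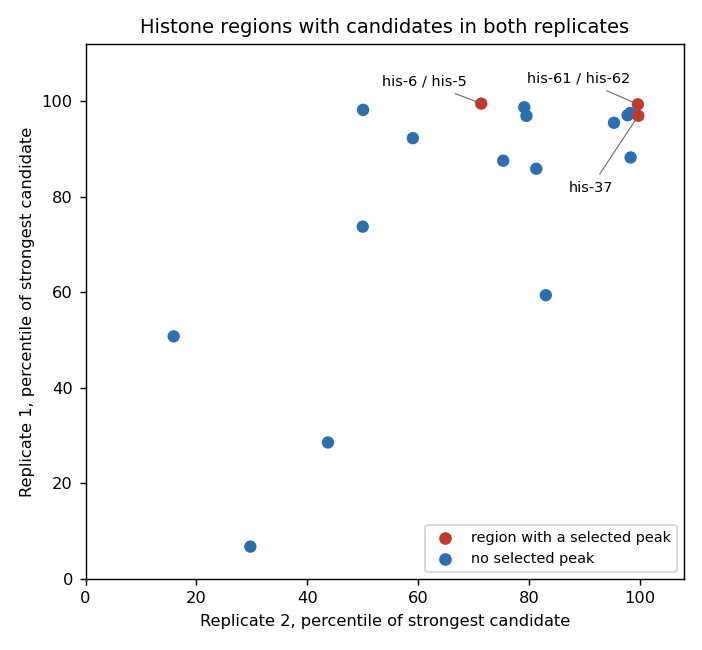
Percentile of the strongest candidate in replicate 2 (x axis) and replicate 1 (y axis), each within its own ranked list, for the 18 histone regions with a candidate in both; red points are regions with a selected peak. The regions of his-61 with his-62 and of his-37 lie near the top in both replicates, while his-5 with his-6 reaches percentile 99.5 in replicate 1 and 71.4 in replicate 2.

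Genes for other histones and for histone supply were taken as a fixed list of 24 genes: variants outside the his- names, H1-like genes, histone chaperones and a histone mRNA processing factor. Of these 14 had a candidate and 1 had a selected peak, or 4.17% of their 24 regions. The share with a candidate, 58.3%, was near the 62.9% of other protein-coding regions, and the share selected over all regions was 1.22%. That was lin-53 on chromosome I, which encodes a histone-binding protein found in several chromatin complexes. Its candidate had a signal of 103.8, rank 204, and stood in both lists, and the strongest candidates in its window ranked 193 in replicate 1 and 484 in replicate 2. Its neighbour rba-1, which encodes a related histone-binding protein, had a strongest candidate of signal 44.3, unselected. The stem-loop binding protein gene cdl-1, whose product is needed for histone mRNA processing, had an unselected candidate of signal 49.5. The H2A variant gene htz-1 had one of signal 19.5 and the centromeric H3 gene hcp-3 one of signal 25.2, both unselected. Over the 14 genes with a candidate, the strongest had a median signal of 45.2 (lowest 15.4, highest 103.8), and both of these lay below that median. The strongest candidates in the htz-1 window ranked 2452 in replicate 1 and 16554 in replicate 2.

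The 4 short sequence elements examined were searched on both strands in the 300 bases from 250 before to 50 after each start, and none of them contains another. TATAAA, the letters of a TATA box, was present at 47 of 72 histone promoters (65.3%), against 37.8% of 19901 other promoters. GAGAGA was present at 33 of 72 (45.8%), against 21.7%. Copies weigh on these counts, and among the 61 distinct histone sequences 39 held TATAAA and 28 held the GA repeat. The windows of paired genes also overlap, so the same element between their starts can count for both partners. Taking distinct sequences does not remove this. The element CGCGCA was present at 3 histone promoters (4.17%), against 6.09% of others. The octamer ATTTGCAT, known from vertebrate H2B promoters, was present at 0 histone promoters, against 2.87% of others. In the 201 bases around the candidate summits, TATAAA was present in 23.5% of histone candidates, against 16.8% of other promoter candidates. At the same summits GAGAGA was present in 7.84%, against 13.7%. For CGCGCA the shares were 9.80% of histone candidates and 4.73% of the others. As the printed sequences show, TATAAA occurs at the peaks of his-37 and of his-5 and his-6 but not at that of his-61 and his-62. These are matches of letters in a window and were not tested as binding sites.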

How the data were processed

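ChIP-seq peak lists of 2 biological replicates were used: a ranked and a thresholded list per replicate, and 2 ranked, 1 optimal and 1 conservative list of both, on ce11, per the deposited notes. The deposited signal is the authors' peak caller value. The deposited −log10 q values come from the caller, and the authors gave the −log10 IDR in the ranked lists. Peak caller, aligner, versions, filters and read depth are not given (neither labels nor notes name them), so depth per sample is unknown and no interval could be given.

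Summits were assigned to Ensembl gene starts. Ensembl gives the 72 genes 50 names, so RefSeq symbols, matched by coordinates, were used; 65 genes have no annotated upstream untranslated sequence. Repeated 31-base words, motifs and GC content came from the RefSeq sequence. Histone classes follow protein identity to his-24, his-3, his-4, his-2, his-72 and his-1. Named genes were those with a selected peak, the strongest window per cluster, the 5 strongest unselected windows, single genes, H1 and H3.3-type genes, and supply genes with a selected peak; cdl-1, rba-1, htz-1 and hcp-3 were added after their values were seen. Counting was tested on simulated data. Members, lists and motifs were chosen with earlier results of these data known. Python 3.11.15, numpy 2.4.6, pandas 2.3.3, biopython 1.88 and matplotlib 3.10.9 were used.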

Additional observations from a re-analysis of the deposited data

How the results depend on the processing

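The main counts were 3 of 37 histone regions and 5 of 72 genes with a selected peak. With the conservative list alone, and also with only selected peaks at or above the median signal of the optimal list, 3 genes were counted, since his-5 and his-6 were lost. With windows from 2000 bp upstream 8 genes were counted, in 3 of 20 regions. Without replicate 1 or replicate 2, where the other replicate's own thresholded list selects, regions and genes both gave 0 to 0. Windows extended through the gene body, chosen after seeing the data, gave 5 regions. The median percentile of the strongest candidate per region was 94.4, and ranged from 79.1 to 88.2 without a replicate; with windows from 500 bp upstream it was 84.0. Every other alternative run for these counts stayed within 1.5 times of them, those with overlap, coding start, pair merging or every transcript start (the last also chosen after seeing the data) included. Candidates lay in 26 of 37 regions in the main setting. They lay in 18 of 41 regions with windows from 500 bp upstream and in 19 of 20 with windows from 2000 bp. The share of regions with a candidate thus depended on the window, and the shares of other regions at these windows are not given. No paired analysis was possible because the 2 replicates form 1 group. Depth is unknown, so no limit of detection can be given, and the part of copied sequence was not tested.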
